A study of Homo sapiens with 12 samples.

Results

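The receptor genes FLT3, KIT, IL7R, IL2RA, IL2RG, CSF2RB, IL4R, IL6ST and IL10RA were followed through the series. They are receptors, or signalling chains of receptors, for cytokines and growth factors of lymphoid and progenitor cells. They were chosen by symbol, and all 9 were found among the 60664 genes of the count table. Of these, 8 had reads in at least 1 library, and 7 had enough reads to be tested. RNA was sequenced from 2 human lines of B-cell precursor leukaemia, TOM-1, which carries the BCR-ABL1 fusion of the Philadelphia chromosome, and RS4;11, which carries a KMT2A rearrangement. The 4 groups of 3 libraries were TOM-1 in control culture, TOM-1 with ADI-PEG20, RS4;11 in control culture and RS4;11 with ADI-PEG20. ADI-PEG20 is a pegylated arginine deiminase that breaks down arginine in the medium, and it was given at 1000 ng/ml for 24 h. Each line stands for 1 established culture, and the labels do not say whether replicates came from separate cultures, so p-values measure the spread between these libraries, which may be technical. In bulk RNA, fewer cells expressing a gene and less RNA of it per cell cannot be told apart.

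The members fall into a few families. FLT3 and KIT are receptor tyrosine kinases, which phosphorylate themselves when their ligands pair them. The others have no kinase of their own and work as shared or private chains of larger complexes. Apart from IL2RA, they bind Janus kinases (JAKs), which phosphorylate STAT transcription factors. In precursor B cells, signals through IL7R and FLT3 are known to drive survival and proliferation.

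One library stood apart before any comparison. TOM-1 control replicate 3 had reads in 14963 genes, whereas the other 11 libraries had reads in 19857 to 21997, at library totals between 18958144 and 35956959 counts. Its correlation with the other TOM-1 control replicates across genes on a log scale was 0.921 to 0.926, and the lowest value of any other replicate pair was 0.975. The members moved unequally in it: relative to the mean of TOM-1 control replicates 1 and 2, its CPM (counts scaled to library size by TMM) were 0.357 times as high for IL7R, 0.367 times for IL6ST, 0.697 times for FLT3, 1.07 times for IL4R and 2.46 times for IL2RG. Results that use the TOM-1 controls are therefore given for all 12 libraries and again without this library. All 9 markers of the B lineage were above the level of 3 counts in each group, and their summed level ran from 6107 to 6874 CPM in TOM-1 control and from 6289 to 6543 CPM with ADI-PEG20, ranges that overlap. In RS4;11 it ran from 2124 to 2285 CPM and from 2283 to 2490 CPM. Of the 6 T cell markers, CD3D, CD3E, CD3G and CD2 had 0 counts in both TOM-1 groups and in RS4;11 control, and CD3G alone had 0 counts in RS4;11 with ADI-PEG20. The summed level of the 6 ran from 123 to 210.3 CPM in TOM-1 control, 135 to 151 CPM in TOM-1 with ADI-PEG20, 427 to 479 CPM in RS4;11 control and 424 to 457 CPM in RS4;11 with ADI-PEG20. Where CD3D, CD3E, CD3G and CD2 were at 0, only CD5 and TRAC had reads. In RS4;11 control only 1 of the 6 markers was above 3 counts in any library. Markers of NK cells summed to 24.9 to 69.1 CPM in TOM-1 control and 47.7 to 58.3 CPM in RS4;11 control. Those of stroma and endothelium summed to 209 to 254 CPM in TOM-1 control and 5.02 to 7.84 CPM in RS4;11 control, with COL1A2 and CDH5 at 0. Monocyte and granulocyte, erythroid and megakaryocyte markers summed to 26.7 CPM or below in every library. What part these levels have in the results was not tested.

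Receptor RNA differed between treated and control TOM-1 libraries. IL7R, the interleukin 7 receptor chain, fell, and IL6ST, the shared signalling chain of the interleukin 6 family, and IL4R, the interleukin 4 receptor chain, rose. In edgeR's quasi-likelihood test with Benjamini-Hochberg adjustment over all tested genes (adjusted p under 0.05), 3 of the 7 tested members passed, 2 higher and 1 lower, when 31.9% of all 17349 tested genes passed. With TOM-1 control replicate 3 left out, 4 of 7 passed, with FLT3 added on the lower side, when 41.6% of 18321 genes passed. These shares of members are near the background, so receptors as a set did not stand apart in the number of calls. The median log2 fold change of the tested members was 0.41, beside 0.05 for all genes, and 0.21 beside 0.00 without that library. With each library left out in turn, IL7R passed in 12 of 12 fits, IL6ST in 10 and IL4R in 8. In a fit on the 6 TOM-1 libraries alone 0 of the 7 passed, when 2639 of 15320 genes passed.

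In RS4;11 no member passed. With all 12 libraries edgeR called 0 genes (0%). An unadjusted p under 0.05 was found for 325 of the 17349 tested genes, none of them a member. That share is below 0.05, the share that passes when no gene changes. DESeq2 called 1 gene, which was no member. Without TOM-1 control replicate 3, 0.317% of genes passed, and IL7R was the 1 member with an unadjusted p under 0.05, at 0.13 ± 0.05 (log2 fold change ± SE, edgeR adjusted p = 0.287). The other tested members had RS4;11 effects between -0.10 and 0.19 in both fits.

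The difference of the ADI-PEG20 effect between the lines was tested directly, in the same model. With all 12 libraries 1 of 7 members passed, IL7R, when 11.9% of all genes passed. In the fit without TOM-1 control replicate 3, 4 of 7 passed (IL7R and FLT3 with the lower effect in TOM-1, IL4R and IL6ST with the higher), when 30.4% of genes passed. The plot of effects sets the lines side by side.

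**Figure D1:**
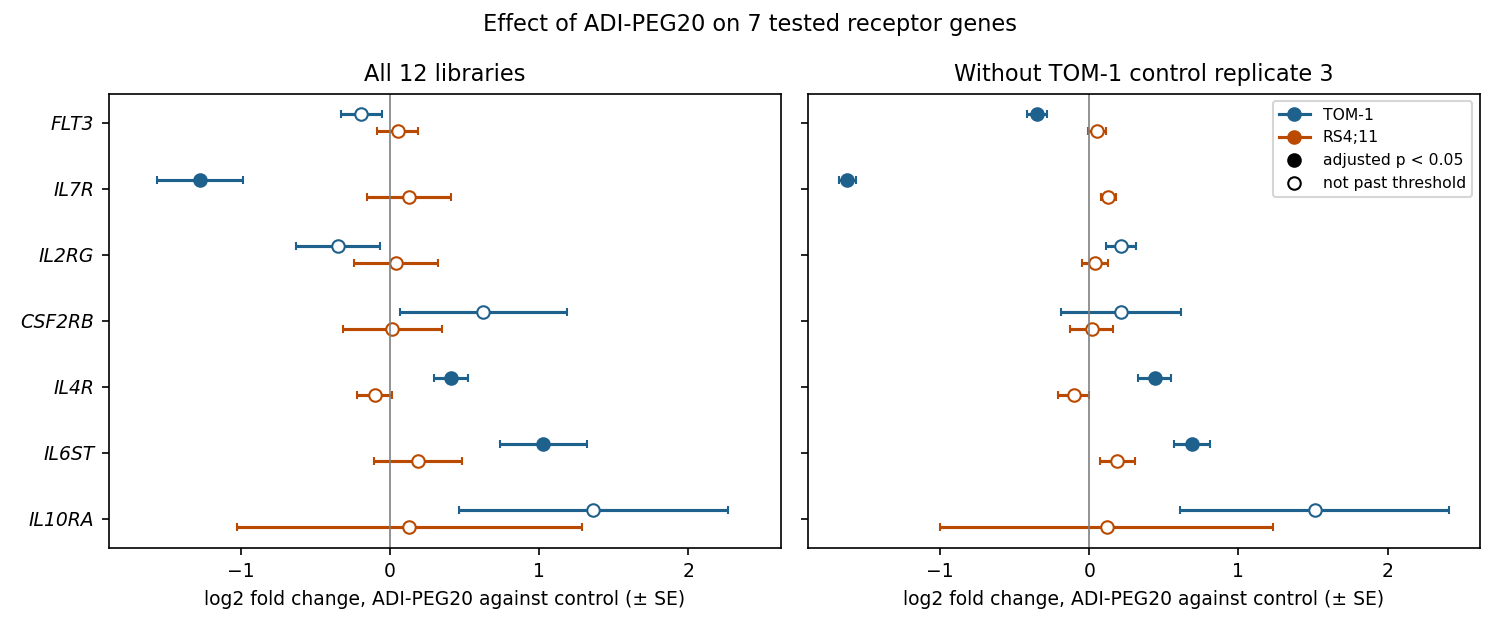
Log2 fold change of ADI-PEG20 against control (horizontal axis, ± SE from edgeR) for the 7 tested receptor genes, in TOM-1 (blue) and RS4;11 (orange), with all 12 libraries (left) and without TOM-1 control replicate 3 (right). Filled points passed an adjusted p of 0.05; IL7R is the lowest in TOM-1 in both panels, at -1.27 and -1.62, and no RS4;11 point is filled.

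The lines also differed from each other whatever the treatment. In control culture 4 of 7 members passed, CSF2RB and IL7R lower in TOM-1 and IL4R and IL6ST higher, when 34.7% of genes passed. Without TOM-1 control replicate 3 this was 6 of 7, when 52.8% of genes passed, with IL2RG added as lower and IL10RA as higher in TOM-1. Under ADI-PEG20, 6 of 7 passed, when 47.2% of genes passed, and 7 of 7 without that library, when 62.9% passed. Both comparisons of the lines share libraries with the treatment comparisons, so their values are not independent of those.

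Levels of different genes were compared per kilobase of exon. In RS4;11 the order was IL7R, FLT3, IL2RG, CSF2RB, IL4R and IL6ST, and no neighbours in that order overlapped between libraries, in control or with ADI-PEG20. IL7R stood at 116 ± 5.39 CPM per kb (SD, n = 3) in RS4;11 control, and FLT3, next in the order, at 42.6 ± 0.619 CPM per kb. In TOM-1 control the order began with FLT3 at 39.2 ± 7.75, IL7R at 28.0 ± 13.2 and IL2RG at 15.9 ± 9.02 CPM per kb, whose ranges overlapped. After leaving out TOM-1 control replicate 3, they stood at 43.6, 35.6 and 10.7 CPM per kb with no overlap. With ADI-PEG20, IL7R in TOM-1 was at 11.6 CPM per kb, within the range of IL2RG at 12.4 CPM per kb, and IL4R at 6.75 and IL6ST at 6.03 CPM per kb overlapped too. FLT3 was the highest member in both TOM-1 groups by its mean, and IL7R in both RS4;11 groups.

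**Figure D2:**
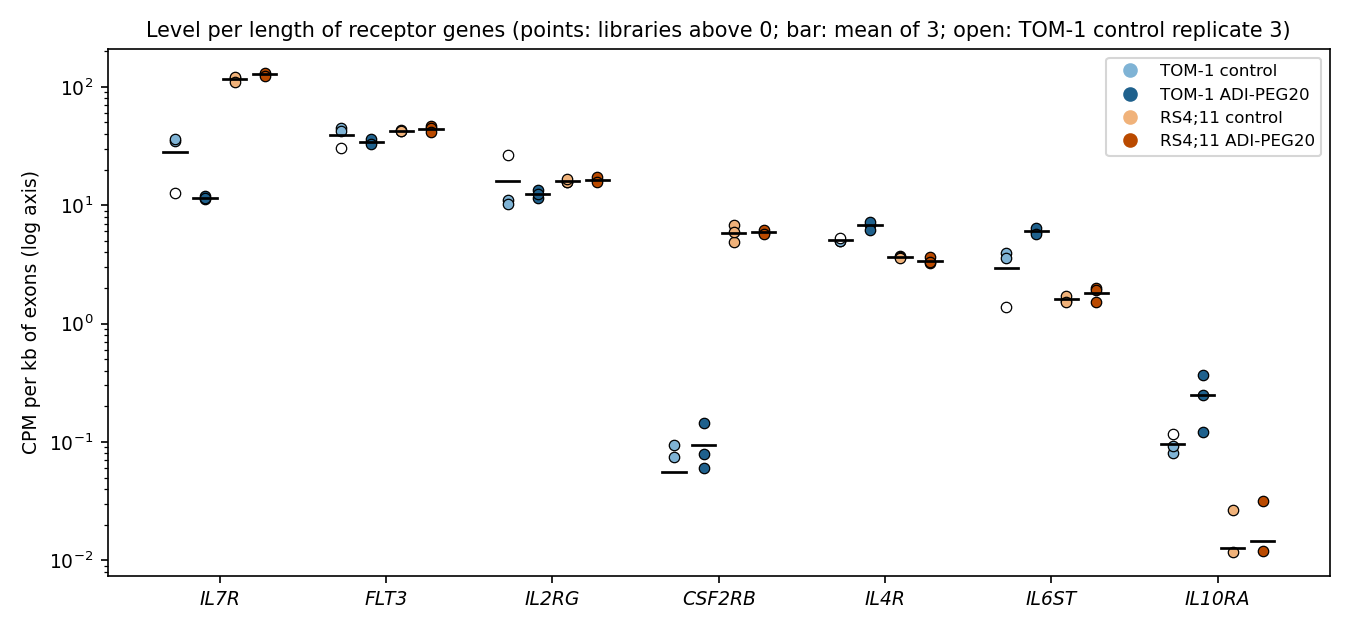
Level per length (CPM per kb of exons, log axis) of the 7 tested receptor genes in each library, by group; bars are means of 3 libraries, libraries at 0 are not drawn, and the open point is TOM-1 control replicate 3. IL7R is highest in RS4;11, near 116 CPM per kb in control, and CSF2RB is near 5.86 CPM per kb in RS4;11 control and below 0.1 CPM per kb in the mean of both TOM-1 groups.

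FLT3, the receptor tyrosine kinase for FLT3 ligand (chromosome 13, 28003274 to 28100592, minus strand), was abundant in every library. Its levels in TOM-1 control replicates 1, 2 and 3 were 187, 176 and 126 CPM. With ADI-PEG20 they were 141, 150.4 and 136 CPM in TOM-1. In RS4;11 they were 177, 179.9 and 175 CPM in control and 193, 186 and 173 CPM with ADI-PEG20. The treated TOM-1 libraries lay below TOM-1 control replicates 1 and 2 and above replicate 3, and the RS4;11 groups overlapped. FLT3 in TOM-1 did not pass with all 12 libraries, at -0.19 ± 0.14 (edgeR adjusted p = 0.325), and passed without TOM-1 control replicate 3, at -0.35 ± 0.07 (adjusted p = 0.000172). The difference of its effect between the lines was -0.25 (adjusted p = 0.470) and, without that library, -0.40 ± 0.09 (adjusted p = 0.00144). In control culture FLT3 differed between the lines by -0.12 ± 0.14 (TOM-1 minus RS4;11, edgeR adjusted p = 0.550), and by 0.03 ± 0.07 without that library, which turns the sign. Under ADI-PEG20 FLT3 was lower in TOM-1, at -0.37 ± 0.14 (adjusted p = 0.0462; -0.37 ± 0.06 without TOM-1 control replicate 3). In turn, 5 of the 12 fits with 1 library left out lost this call, those without any one treated TOM-1 library or RS4;11 ADI-PEG20 replicate 1 or 2 (adjusted p 0.0539 to 0.127), and it was lost with no filter on low counts (0.106).

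KIT, the receptor tyrosine kinase for stem cell factor (chromosome 4, 54657918 to 54740715, plus strand), was almost absent. It had 0 counts in 11 libraries and 6 counts, 0.287 CPM, in RS4;11 control replicate 3. A count of 0 allows up to 3 counts, which is 0.0853 to 0.166 CPM at these depths and covers counting error only. KIT was not tested. Its ligand gene KITLG had 0 counts in all 12 libraries, and the FLT3 ligand gene FLT3LG had group means of 0 to 0.256 CPM.

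IL7R (chromosome 5, 35852695 to 35879603, plus strand) pairs with IL2RG to bind interleukin 7, and with CRLF2 to bind thymic stromal lymphopoietin. In TOM-1 control replicates 1, 2 and 3 its levels were 210.1, 221 and 77.1 CPM. With ADI-PEG20 they were 68.5, 72.5 and 69.7 CPM. The 3 treated TOM-1 libraries lay below all TOM-1 controls, close to each other and just under control replicate 3. In RS4;11 the levels were 721, 727 and 668 CPM in control and 772, 790.4 and 752 CPM with ADI-PEG20. All RS4;11 libraries were above all TOM-1 libraries, and the treated RS4;11 libraries were above the controls.

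The log2 fold change of IL7R in TOM-1 was -1.27 ± 0.29 (edgeR adjusted p = 0.00553), and -1.62 ± 0.06 without TOM-1 control replicate 3 (adjusted p = 5.73e-15). It passed in all 12 fits that leave out 1 library each, and not in a fit on the 6 TOM-1 libraries alone (-1.30 ± 0.37, adjusted p = 0.0548). The effect was lower in TOM-1 than in RS4;11 by 1.40 log2 units, with a difference of -1.40 ± 0.40 (adjusted p = 0.0415). This call was lost in 11 of the 12 leave-one-out fits (adjusted p 0.0618 to 0.0961). Without TOM-1 control replicate 3 the difference was -1.75 ± 0.08 (adjusted p = 6.5e-13). Between the lines IL7R was lower in TOM-1 by -2.06 ± 0.29 in control culture (adjusted p = 0.000153, and -1.71 without that library) and by -3.46 ± 0.31 under ADI-PEG20 (adjusted p = 2.5e-06; -3.46 without it). CRLF2, its partner for thymic stromal lymphopoietin, had a mean of 0.742 CPM in TOM-1 control and 0.883 CPM with ADI-PEG20. In RS4;11 its means were 0 CPM in control and 0.12 CPM with ADI-PEG20. It was higher in TOM-1 in control culture, by 7.15 ± 1.86 (edgeR adjusted p = 0.0135; 6.48 without TOM-1 control replicate 3). Under ADI-PEG20 the line difference of 2.89 did not pass with all 12 libraries (adjusted p = 0.0886). CRLF2 had at most 25 counts in any library.

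IL2RG, the common gamma chain shared by the receptors for interleukins 2, 4, 7, 9, 15 and 21 (chromosome X, 71107404 to 71112108, minus strand), shares 50.8% of its exonic bases with another annotated gene on the same strand. That gene had 0 to 4 counts in each library, and how reads on shared bases were assigned is not given in the sources used here, so the level of IL2RG is uncertain. In TOM-1 control replicates 1, 2 and 3 it stood at 30.7, 28.4 and 72.6 CPM. With ADI-PEG20 it stood at 31.6, 36.9 and 34.5 CPM in TOM-1. In RS4;11 it was 43.3, 43.5 and 45.6 CPM in control and 45.1, 47.6 and 43.4 CPM with ADI-PEG20. TOM-1 control replicate 3 was the highest of the 12 libraries, and every other TOM-1 library was below every RS4;11 library.

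The effect of ADI-PEG20 on IL2RG in TOM-1 turned its sign with this 1 library. It was -0.35 ± 0.28 with all libraries (edgeR adjusted p = 0.389) and 0.21 ± 0.10 without it (adjusted p = 0.0938). In control culture the lines differed by -0.01 ± 0.28 (adjusted p = 0.980), and without it IL2RG was lower in TOM-1, at -0.58 ± 0.10 (adjusted p = 4.12e-05). Under ADI-PEG20 the library is in neither group and enters only through the shared filter, scaling, spread and adjustment. There the difference was -0.40 ± 0.28 (edgeR adjusted p = 0.269) and -0.41 ± 0.09 without it (adjusted p = 0.000369). With voom quality weights on all libraries it was -0.40 (limma adjusted p = 0.000227).

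IL2RA, the private alpha chain that raises the affinity for interleukin 2 (chromosome 10, 6010689 to 6062370, minus strand), had 0 counts in all 12 libraries. IL2RB, the beta chain of that receptor, had means of 0.362 CPM in TOM-1 control, 0 CPM in TOM-1 with ADI-PEG20, 0.0319 CPM in RS4;11 control and 0 CPM in RS4;11 with ADI-PEG20, and was not tested. IL21R, which joins IL2RG to bind interleukin 21, was well above these. Its levels in TOM-1 were 32.1, 35.6 and 44.9 CPM in control and 72.8, 83.9 and 70.7 CPM with ADI-PEG20. The groups did not overlap, and IL21R rose by 1.02 (edgeR adjusted p = 0.000260, and 1.16 without TOM-1 control replicate 3). In RS4;11 IL21R had means of 37.3 CPM in control and 33.7 CPM with ADI-PEG20, and its effect differed between the lines by 1.16 (adjusted p = 0.00334). Genes on the opposite strand cover 23.3% of the exonic bases of IL21R.

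IL4R (chromosome 16, 27313668 to 27364778, plus strand) binds interleukin 4 with IL2RG, or interleukins 4 and 13 with IL13RA1. In TOM-1 control replicates 1, 2 and 3 it stood at 29.2, 29.4 and 31.3 CPM. With ADI-PEG20 it stood at 39.98, 42.6 and 36.7 CPM. In RS4;11 it was 21.9, 21.5 and 21.0 CPM in control and 19.01, 21.4 and 19.6 CPM with ADI-PEG20. All treated TOM-1 libraries were above all TOM-1 controls, which were all above RS4;11, and TOM-1 control replicate 3 lay close to its replicates for this gene. IL4R rose in TOM-1 by 0.41 ± 0.12 (edgeR adjusted p = 0.0177; 0.44 ± 0.11 without that library, adjusted p = 0.00227). The call was lost without TOM-1 control replicate 1 (adjusted p = 0.0642) or 2 (0.0668), and without TOM-1 ADI-PEG20 replicate 1 (0.0674) or 2 (0.129). It was also lost with no filter on low counts (adjusted p = 0.145), with upper-quartile scaling (0.0533) and in a fit on the 6 TOM-1 libraries alone (0.122). Its effect was higher in TOM-1 than in RS4;11 by 0.51 ± 0.16, which did not pass (adjusted p = 0.0627). Leaving out TOM-1 control replicate 3 gave 0.54 ± 0.15, which did (adjusted p = 0.00737). Between the lines IL4R was higher in TOM-1 by 0.48 ± 0.12 in control culture (adjusted p = 0.00669, and 0.44 without that library) and by 0.99 ± 0.12 under ADI-PEG20 (adjusted p = 2.39e-05; 0.99 without it). The first of these calls was lost with no filter on low counts (adjusted p = 0.0659).

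IL6ST, also called gp130 (chromosome 5, 55935095 to 55994993, minus strand), carries the signal of interleukin 6, interleukin 11, LIF and oncostatin M. In TOM-1 control replicates 1, 2 and 3 it stood at 36.4, 33.0 and 12.7 CPM. With ADI-PEG20 it stood at 54.9, 59.9 and 53.3 CPM. In RS4;11 it was 14.6, 15.8 and 14.2 CPM in control and 18.7, 17.97 and 14.1 CPM with ADI-PEG20. The treated TOM-1 libraries were above all others, and TOM-1 control replicate 3 was the lowest of the 12, below even the RS4;11 libraries. IL6ST rose in TOM-1 by 1.03 ± 0.29 (edgeR adjusted p = 0.0183). Leaving out TOM-1 control replicate 3 gave a rise of 0.69 ± 0.12 (adjusted p = 5.8e-05). The call was lost without TOM-1 ADI-PEG20 replicate 1 (adjusted p = 0.0537) or 2 (0.0659), and in a fit on the 6 TOM-1 libraries alone (0.0975).

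The IL6ST effect in RS4;11 was 0.19 ± 0.30 (edgeR adjusted p = 1). The difference between the lines, 0.84 ± 0.41, did not pass (adjusted p = 0.217), whereas leaving out TOM-1 control replicate 3 gave 0.50 ± 0.17, which did (adjusted p = 0.0253). In control culture IL6ST was higher in TOM-1 by 0.89 ± 0.29 (adjusted p = 0.0351), a call lost in 10 of the 12 leave-one-out fits (adjusted p 0.0512 to 0.160) and in a fit on the 6 control libraries alone (0.139). In the fit without TOM-1 control replicate 3, the value was 1.22 ± 0.12 (adjusted p = 2.14e-08). Under ADI-PEG20 it was higher in TOM-1 by 1.73 ± 0.30 (adjusted p = 0.000496, and 1.72 without that library).

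The chains that bind ligands for IL6ST, and the ligands, were measured as well. IL11RA, which binds interleukin 11, rose from a mean of 9.89 to 15.3 CPM, by 0.63 (edgeR adjusted p = 0.0314; 0.48 without TOM-1 control replicate 3). Other genes cover 17.4% of its exonic bases on the same strand. IL6R, which binds interleukin 6, had means of 4.30 and 2.11 CPM and a change of -1.04 (adjusted p = 0.101), and fell by 1.46 without that library (adjusted p = 0.000259). OSM, the oncostatin M gene, rose from 2.42 ± 0.289 to 6.85 ± 1.87 CPM, by 1.49 (adjusted p = 0.0103, and 1.40 without it). LIF had 44, 30 and 58 counts in the TOM-1 controls and 46, 51 and 44 with ADI-PEG20, and a single count in all 6 RS4;11 libraries together. The receptor chains for these 2 ligands were at or near 0. LIFR, the LIF receptor chain, had 0 counts in all 12 libraries. OSMR, the oncostatin M receptor chain, had means of 0.188 CPM in TOM-1 control and 0.405 CPM with ADI-PEG20. In RS4;11 its means were 0.0429 and 0.0495 CPM, and it was not tested.

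**Figure D3:**
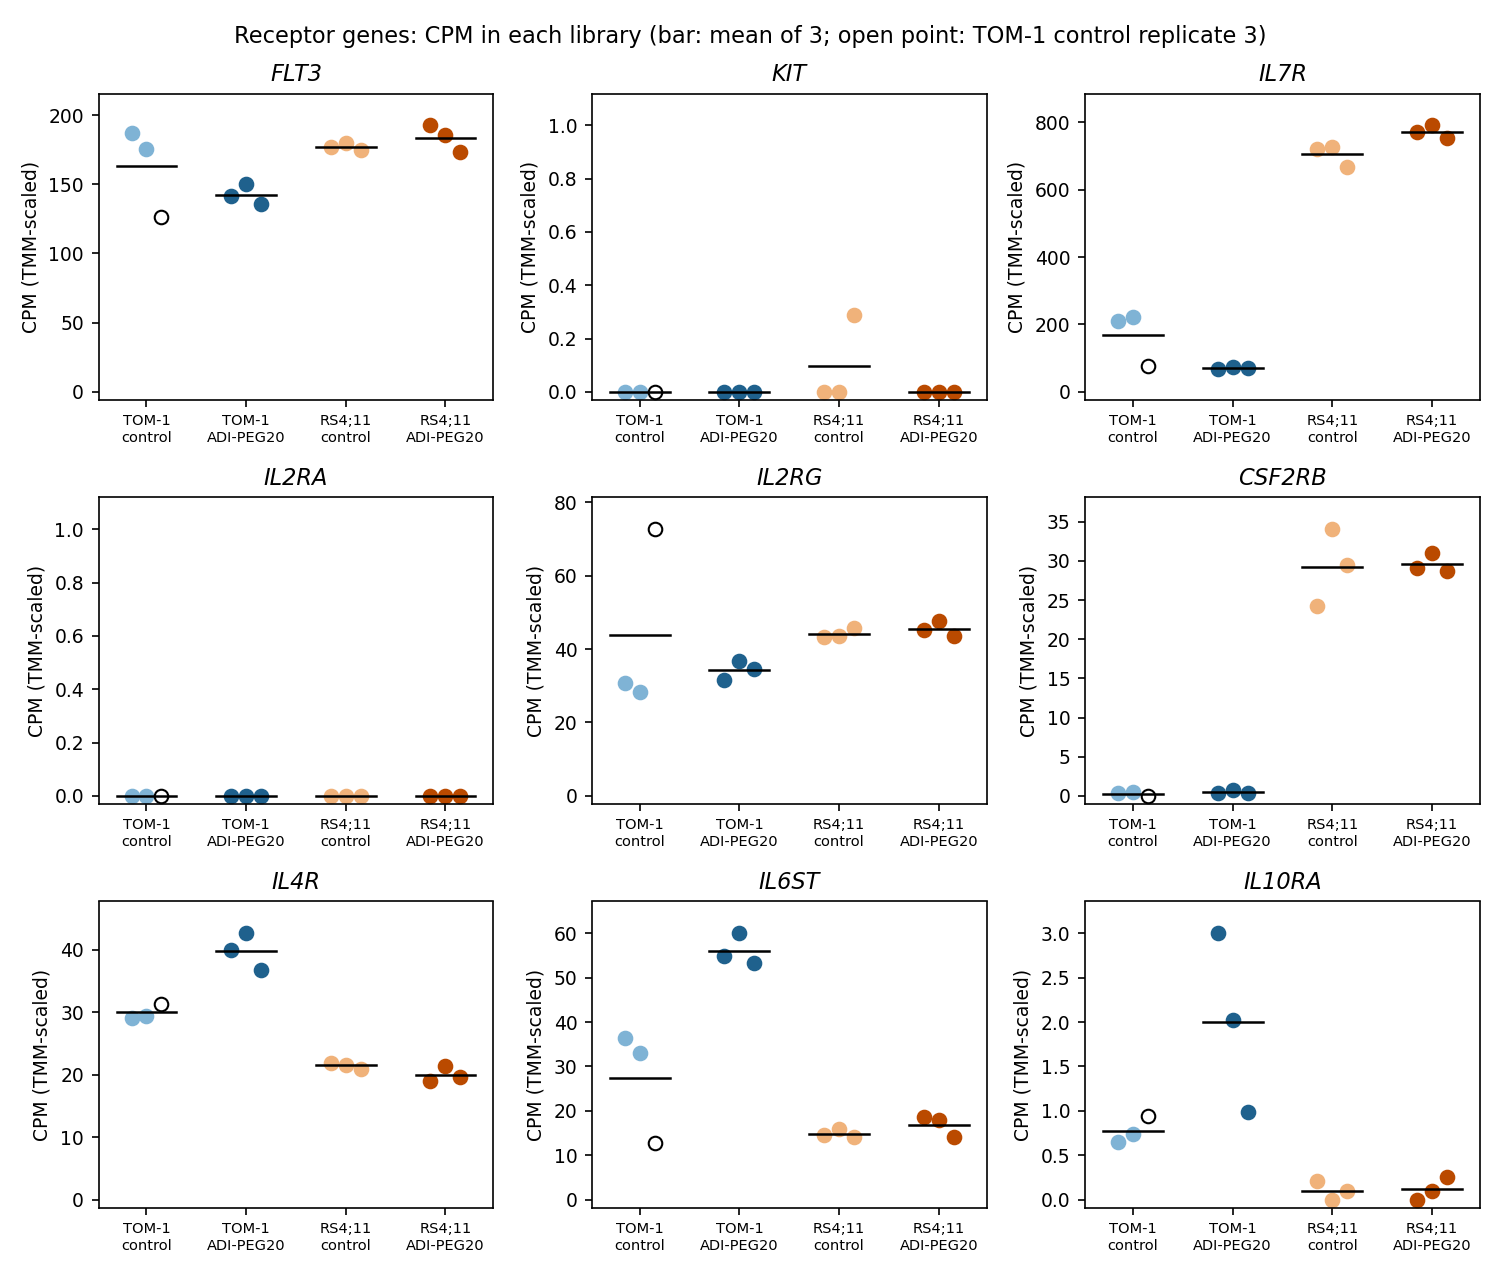
TMM-scaled CPM of the 9 receptor genes in each library, by group (3 libraries each; the bar is their mean, the open point TOM-1 control replicate 3; each panel has its own linear axis). In the TOM-1 panels the open point is far from its replicates for IL7R, IL6ST, IL2RG and FLT3 and near them for IL4R; treated TOM-1 libraries are highest for IL4R and IL6ST, and CSF2RB is near 0 in TOM-1.

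The sequence before the start site is shown for the 3 members that passed in treated TOM-1, since IL4R and IL6ST rose and IL7R fell. Windows of 250 bases before and 50 after the start came from RefSeq on GRCh38.p14, which matched 8 of the 9 members and not CSF2RB, with 35116 windows in all. They were searched on both strands, overlaps included, for the GC box GGGCGG (in 45.0% of all windows), the STAT half-site pair TTCNNNGAA (7.66%) and the composite C/EBP-ATF motif TGATGNAA (3.62%). The stretches shown are the longest parts of the upstream bases that lie outside the gene's annotated UTRs, 5′ to 3′ on the gene's strand, with GC boxes on either strand in capitals: IL4R at chr16:27313818-27313912 (plus strand, 95 bases), IL6ST at chr5:55994994-55995213 (minus strand, 220 bases) and IL7R at chr5:35856688-35856848 (plus strand, 161 bases).
IL4R: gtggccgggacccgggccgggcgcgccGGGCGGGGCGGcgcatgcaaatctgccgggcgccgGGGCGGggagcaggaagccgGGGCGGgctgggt
IL6ST: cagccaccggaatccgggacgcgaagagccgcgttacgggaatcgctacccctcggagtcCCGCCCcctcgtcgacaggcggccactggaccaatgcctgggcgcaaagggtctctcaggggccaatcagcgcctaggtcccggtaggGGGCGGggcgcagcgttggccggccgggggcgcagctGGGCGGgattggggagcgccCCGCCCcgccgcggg
IL7R: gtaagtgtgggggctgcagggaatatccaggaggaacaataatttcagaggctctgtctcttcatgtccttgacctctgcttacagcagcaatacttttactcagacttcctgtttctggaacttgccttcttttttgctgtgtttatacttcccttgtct
The windows of IL4R and IL6ST had 4 GC boxes each, and in IL4R the matches that start at -129 and -124 overlap. Their GC content was 79.3% and 72.7% with 42 and 36 CpG, beside a median of 58.7% and 14 CpG over all windows. The IL7R window had a GC content of 44.3%, 0 CpG, no GC box and a match to TGATGNAA that starts at -216, outside the stretch shown. By GENCODE IL4R starts at 27313668 and IL7R at 35852695, so their windows, from 27313724 and 35856641, lie within the annotated genes. FLT3, at 74.0% GC, had no GC box, and KIT, which had almost no reads, had 1. IL2RG and IL10RA, each at 50.3% GC, and IL2RA, at 41.7% GC, had no GC box. None of the 8 windows held TTCNNNGAA, which says only that these letters are not in this window.

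CSF2RB, the common beta chain of the receptors for interleukin 3, interleukin 5 and GM-CSF (chromosome 22, 36913628 to 36940449, plus strand), separated the lines most among the members by log2 difference. It had 13, 12 and 0 counts in TOM-1 control replicates 1, 2 and 3 and 7, 19 and 10 with ADI-PEG20, which is 0.279 ± 0.247 and 0.473 ± 0.224 CPM (SD, n = 3). In RS4;11 it had 566, 826 and 617 counts in control and 729, 638 and 562 with ADI-PEG20, which is 29.3 ± 4.87 and 29.6 ± 1.204 CPM. No TOM-1 library reached 1 CPM and no RS4;11 library was below 24.3 CPM. CSF2RB was lower in TOM-1 by -6.55 ± 0.47 in control culture (edgeR adjusted p = 5.32e-07; -6.14 without TOM-1 control replicate 3) and by -5.94 ± 0.45 under ADI-PEG20 (adjusted p = 6.05e-07, and -5.94 without it). ADI-PEG20 gave 0.63 ± 0.56 in TOM-1 (adjusted p = 0.441; 0.21 ± 0.40 without that library) and 0.02 ± 0.33 in RS4;11 (adjusted p = 1), and at 0 to 19 counts a library the depth limits the TOM-1 value.

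The alpha chain of the interleukin 3 receptor, IL3RA, was on the other side: it was higher in TOM-1 control, at 38.6 ± 11.7 CPM, than in RS4;11 control, at 7.15 ± 0.798 CPM, by 2.43 (edgeR adjusted p = 5.01e-06, and 2.16 without TOM-1 control replicate 3). Its levels in TOM-1 were 34.1, 29.9 and 52.0 CPM in control and 32.8, 29.5 and 25.7 CPM with ADI-PEG20. The alpha chain of the GM-CSF receptor, CSF2RA, had means of 0.305 CPM or below in TOM-1 and of 0.377 CPM or below in RS4;11, and was not tested. IL3RA, CSF2RA and CRLF2 lie in the pseudoautosomal region, where reads can map to a second copy, so their levels are uncertain.

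IL10RA, the ligand-binding chain for interleukin 10 (chromosome 11, 117986348 to 118003037, plus strand), was low. It had 23, 19 and 17 counts in the TOM-1 controls and 70, 53 and 25 with ADI-PEG20, or 0.654, 0.741 and 0.938 CPM and 3.00, 2.02 and 0.983 CPM. The treated TOM-1 libraries were all above the controls, the lowest of them by little. RS4;11 had 5, 0 and 2 counts in control and 0, 2 and 5 with ADI-PEG20. The ADI-PEG20 effect in TOM-1, 1.36 ± 0.90, did not pass (edgeR adjusted p = 0.285; 0.200 without TOM-1 control replicate 3).

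Between the lines, summed IL10RA counts of 59 in TOM-1 control and 7 in RS4;11 control gave a depth-adjusted ratio of 7.31 (95% exact interval 3.34 to 18.97, counting error only). Under ADI-PEG20, 148 and 7 counts gave 18.4 (8.70 to 46.5). In edgeR the line difference in control culture did not pass (2.85 ± 1.05, adjusted p = 0.0529). It passed without TOM-1 control replicate 3 (2.70 ± 1.00, adjusted p = 0.0285), without RS4;11 control replicate 1 (adjusted p = 0.04997) and without RS4;11 ADI-PEG20 replicate 1 (0.0342). On all 12 libraries it passed in edgeR with no filter on low counts (adjusted p = 0.0478) or a filter on a mean of 10 (0.0461). It also passed with DESeq2 (adjusted p = 0.00677) and limma voom (0.0146), and not with the replicate block in edgeR (0.0852), with either other scaling or on the control libraries alone. Under ADI-PEG20 the line difference passed in edgeR with all 12 libraries, at 4.08 ± 1.07 (adjusted p = 0.00765). IL10RB, the second chain of the receptor, had means of 1.38 CPM in TOM-1 control and 0.797 CPM in RS4;11 control. Other genes cover 38.1% of its exonic bases on the same strand.

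The wider pathway was described by 5 lists with 90 genes: partner chains, ligands, kinases and STATs, adaptors and effectors, and inhibitors. In treated TOM-1, 25 of the 65 tested genes passed, 19 higher and 6 lower, beside the 31.9% of all genes given above (2765 higher and 2762 lower). Without TOM-1 control replicate 3 it was 37 of 66, 25 higher and 12 lower, beside 41.6% (3996 higher and 3620 lower). Counts of each list in treated TOM-1 are read beside these shares and directions. The median log2 fold change of the tested pathway genes was 0.27 (0.13 without that library), and 0.05 (0.00) for all genes. In RS4;11 none of the 65 passed, nor any of the 66 without that library. The plot of the pathway lists shows each gene.

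Of 19 tested partner chains, 8 passed in treated TOM-1, 4 in each direction. CSF1R, the receptor tyrosine kinase for M-CSF and a relative of FLT3 and KIT, fell from 4.09, 4.17 and 4.36 CPM to 0.385, 0.573 and 0.393 CPM, by 3.20 ± 0.23 (edgeR adjusted p = 4.49e-06; a log2 fold change of -3.18 without TOM-1 control replicate 3). CSF3R, the G-CSF receptor, rose from 2.19, 4.21 and 2.04 CPM to 8.48, 9.09 and 7.91 CPM, by 1.59 ± 0.39 (adjusted p = 0.0157, and 1.41 without that library). Neither pair of groups overlapped. CSF3R had 0 counts in every RS4;11 library, so TOM-1 control was at least 21.3-fold higher, against a mean of 3 counts a library (0.132 CPM).

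Of the ligands, 3 of 18 could be tested, and 1, OSM, rose. KITLG, IL2, IL3, CSF2, IL6, IL9 and IL21 had 0 counts in all 12 libraries. IL7 was at 0 in both TOM-1 groups and had means of 0.366 CPM in RS4;11 control and 0.154 CPM with ADI-PEG20. Of 10 tested kinases and STATs, 4 rose and 1 fell (5 and 2 without TOM-1 control replicate 3), when 31.9% of all genes passed (41.6% without that library). STAT2, a transcription factor of type I interferon signalling, rose from 51.0 ± 15.9 to 104 ± 3.35 CPM, by 1.03 (edgeR adjusted p = 0.00196; 0.79 without TOM-1 control replicate 3). JAK1, the kinase bound by IL6ST, IL4R, IL7R and IL10RA, had means of 170.2 and 296 CPM and rose by 0.80 (adjusted p = 0.0309, and 0.49 without that library). JAK3, the kinase bound by IL2RG, had means of 44.5 and 51.3 CPM and a change of 0.20 (adjusted p = 0.298).

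Of 13 tested adaptors and effectors, 4 rose and none fell. With TOM-1 control replicate 3 left out, it was 8, 6 higher and 2 lower. Both counts are read beside the 31.9% and 41.6% of all genes, and 4 of 13 is near the first of these. IRS2, a docking protein of the interleukin 4 and insulin receptors, rose from 17.2 ± 8.33 to 69.7 ± 5.99 CPM, by 2.01 ± 0.31 (edgeR adjusted p = 0.000600; 1.66 without that library). GAB2, a docking protein downstream of cytokine receptors, rose from 204, 193 and 117 CPM to 660.1, 659.9 and 656 CPM, by 1.94 ± 0.17 (adjusted p = 1.59e-05, and 1.73 without it). Of 20 tested inhibitors 6 rose and 1 fell (9 and 2 without that library). PTPN6, the phosphatase SHP-1, fell from 154 ± 45.5 to 49.2 ± 4.07 CPM, by 1.64 ± 0.18 (adjusted p = 5.3e-05; a log2 fold change of -1.38 without it). SH2B3, the adaptor LNK that restrains JAK signalling, rose from 55.6 ± 20.0 to 144 ± 1.59 CPM, by 1.37 ± 0.23 (adjusted p = 0.000856; 1.10 without it).

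**Figure D4:**
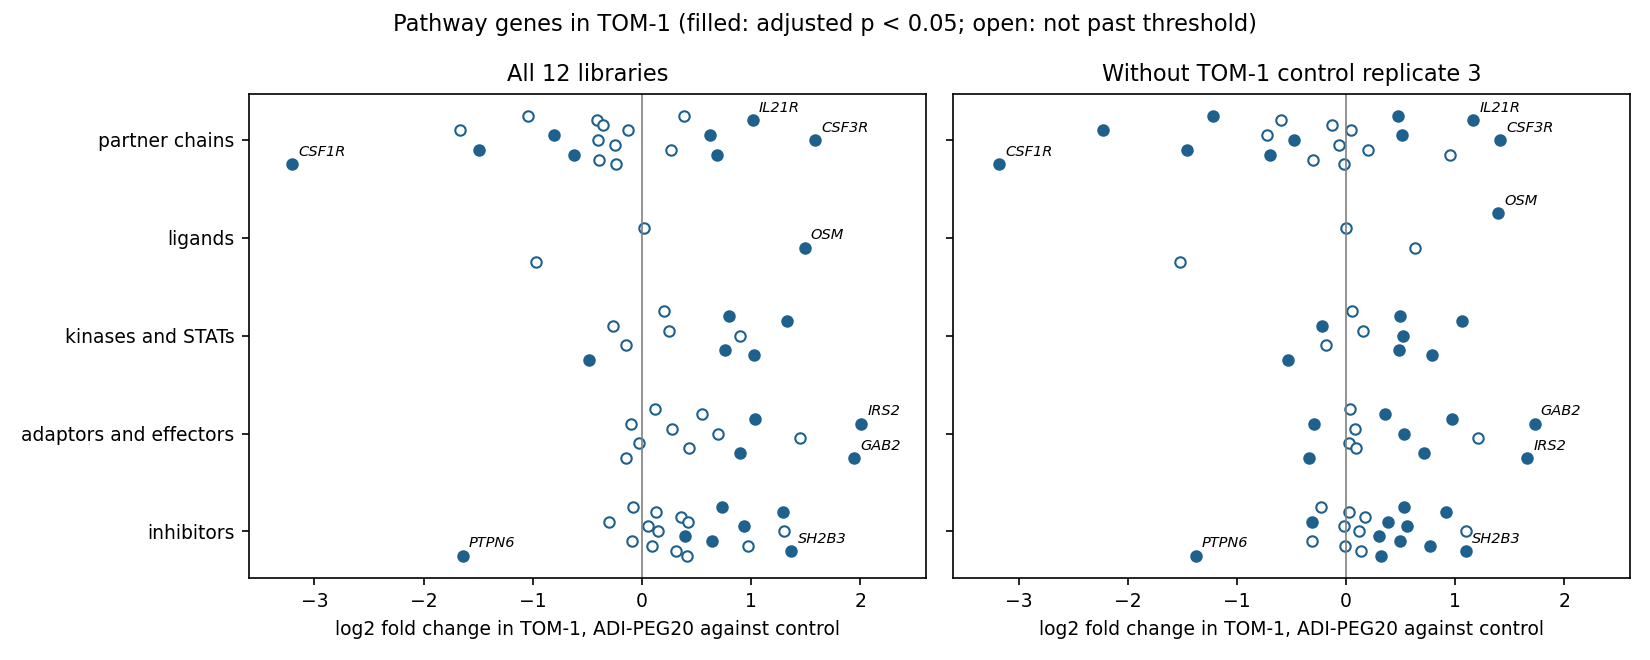
Log2 fold change of ADI-PEG20 against control in TOM-1 (horizontal axis) for each tested gene of the 5 pathway lists, with all 12 libraries (left) and without TOM-1 control replicate 3 (right); height within a list is only for legibility. Filled points passed an adjusted p of 0.05 in edgeR: 25 of 65 at left and 37 of 66 at right, with CSF1R lowest at -3.20 and -3.18.

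In control culture 27 of the 65 pathway genes differed between the lines, 16 higher and 11 lower in TOM-1 (47 of 66, 33 and 14, without TOM-1 control replicate 3), beside 34.7% and 52.8% of all genes. Of the partner chains 8 passed, 6 of them higher in TOM-1, and of the ligands 1, LIF. Of the kinases and STATs 5 passed, 4 of them higher. STAT5A was at 185 ± 13.4 CPM in the TOM-1 controls and 27.7 ± 0.873 CPM in the RS4;11 controls, and STAT5B at 208 ± 50.2 and 114 ± 3.49 CPM, differences of 2.74 and 0.87 (edgeR adjusted p = 1.89e-08 and 0.00113; 2.69 and 1.06 without TOM-1 control replicate 3). These are the STATs that interleukin 7 and FLT3 signals are known to use.

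Of the adaptors 7 passed, 2 higher and 5 lower in TOM-1. IRS1 was at 0.916 ± 0.794 CPM in TOM-1 control and 29.6 ± 4.57 CPM in RS4;11 control, and STAP1, a docking protein of B cells, at 0.573 ± 0.426 and 3.99 ± 0.300 CPM, differences of -4.90 and -2.85 (edgeR adjusted p = 1.96e-05 and 0.00155; -4.42 and -3.51 without TOM-1 control replicate 3, where the STAP1 mean in TOM-1 was 0.364 CPM). Of the inhibitors 6 passed, 3 in each direction. PTPRC, the phosphatase CD45, was at 1.496 ± 1.63 CPM in the TOM-1 controls and 464 ± 10.5 CPM in the RS4;11 controls, and DUSP6, a phosphatase of ERK, at 227 ± 33.3 and 5.21 ± 0.872 CPM, differences of -8.14 and 5.44 (adjusted p = 1.85e-06 and 9.33e-09; -7.61 and 5.55 without it). Genes on the opposite strand cover 40.5% of the exonic bases of DUSP6. Under ADI-PEG20, 41 of the 65 pathway genes differed between the lines, 30 of them higher in TOM-1, beside 47.2% of all genes (50 of 66, 37 of them higher, beside 62.9% with TOM-1 control replicate 3 left out).

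Genes whose pattern over the 12 libraries was most like that of each member were found by the smallest root mean square difference of centred log2 CPM, over 13459 genes and with no test. For IL7R these were SQLE at 0.32 and KCNQ5-DT at 0.32, for IL6ST PIK3CA at 0.12 and BBX at 0.14, and for IL4R GRAMD1A at 0.10 and SCARF1 at 0.10. FLT3 was nearest to PTPRA and POLE2, both at 0.05, and IL2RG to MRPL48 and POC1A, both at 0.10. CSF2RB was nearest to ITGB5 at 0.41 and CD93 at 0.47, and IL10RA to GAD1 at 0.45 and DNAJB2 at 0.55.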

How the data were processed

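The authors deposited 1 table of raw read counts per Ensembl gene for the 12 libraries, not normalized. Per the submitters' processing notes, hg38, STAR, SAMtools and featureCounts were used, with no versions; the use of strand and the annotation release are not given in the sources used here. Columns were matched to samples by the names in the labels. With edgeR 4.0.16 in R 4.3.3, filterByExpr kept 17349 genes (18321 without TOM-1 control replicate 3), libraries were scaled by TMM, and 1 group-means model with 5 contrasts was tested by quasi-likelihood; p-values were adjusted by Benjamini-Hochberg over all tested genes, with a threshold of 0.05. SE is the log2 fold change divided by the square root of F. CPM are TMM-scaled, as mean ± SD. Library totals were 18958144 to 35956959 counts. Positions, exon lengths and overlaps came from GENCODE release 29 (GRCh38).

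Alternatives were the Wald test of DESeq2 1.42.0, upper-quartile scaling or DESeq2 size factors within edgeR, filters on low counts (none, or a mean of 10), fits on the libraries of 1 contrast, a replicate block, limma 3.58.1 voom with quality weights, and each library left out in turn. The members, lists and tests were chosen with earlier results of these data known. The text names all members; of each pathway list, the 2 called genes with the largest absolute change in the TOM-1 effect and in the control comparison (mean of at least 1 CPM); direct partners, kinases or ligands of members; and the 2 genes most like each member. Of the genes this rule selects, 1 is not reported here. Same-numbered replicates were taken as unpaired.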

Additional observations from a re-analysis of the deposited data

Results flagged for a closer look

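In edgeR's test of the difference itself, the effect of ADI-PEG20 passed as different between the lines for 4 members in at least 1 of the 2 fits. For IL7R the effect in TOM-1 minus that in RS4;11 was -1.40 on the log2 scale with all 12 libraries (edgeR adjusted p = 0.0415) and -1.75 without TOM-1 control replicate 3 (adjusted p = 6.5e-13). The call with all 12 libraries did not hold in 11 of the 12 fits that leave out 1 library each, the exception being the fit without TOM-1 control replicate 3. Of the 2 edgeR fits, the other members passed only in the one without that library: FLT3 at -0.40 (adjusted p = 0.00144), IL4R at 0.54 (adjusted p = 0.00737) and IL6ST at 0.50 (adjusted p = 0.0253). Other tests passed them on all 12 libraries. With voom quality weights the values were -0.40 for FLT3 (limma adjusted p = 0.00119), 0.56 for IL4R (0.00353) and 0.50 for IL6ST (0.0283). DESeq2 passed IL4R of these, at 0.47 (adjusted p = 0.0227). In groups of 3 libraries a single outlying sample can be judged against few replicates only. It was examined here by the fits that leave out 1 library each and by the voom quality weights.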

How the results depend on the processing

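TOM-1 control replicate 3 limits every TOM-1 value, genes near 0 counts (CSF2RB in TOM-1, IL10RA) are limited by depth, and the cause of each change given here was not tested. In TOM-1, the effect of ADI-PEG20 gave 0 called members and 2639 called genes from the 6 libraries of that contrast alone, and 8434 genes with voom quality weights; leaving out 1 library each gave 1 to 4 members. In RS4;11 the called genes numbered 1 with DESeq2, 3 from the contrast's libraries alone, 17 with voom, and 0 to 58 with 1 library left out. For the difference between the lines, called members numbered 2 with DESeq2, 0 with the replicate block, 4 with voom and 0 to 4 with 1 library left out, and called genes 3463 with DESeq2, 5868 with voom and 1169 to 5567 with 1 library left out. In control culture the lines differed in 3548 genes from that contrast's libraries alone, 10037 with voom and 4731 to 9681 with 1 library left out.

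Some signs turned, none of a value that had passed. For IL2RG the effect in TOM-1 was 0.21 with voom and -0.62 to 0.21 with 1 library left out, and its difference between the lines 0.14 and -0.66 to 0.17. The IL2RG difference of the lines in control culture was 0.0028 with DESeq2, 0.00076 with its size factors in edgeR, 0.0027 with the filter on a mean of 10 counts, 0.023 from the contrast's libraries alone, 0.041 with upper-quartile scaling, and -0.58 to 0.18 with 1 library left out. With voom on all 12 libraries the IL2RG difference did not turn its sign and passed, at -0.54 (limma adjusted p = 8.62e-05). For FLT3 that difference was 0.028 with voom and -0.27 to 0.030 with 1 library left out. In RS4;11 the effect with 1 library left out ran from -0.092 to 0.14 for CSF2RB and from -1.09 to 1.23 for IL10RA.

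Same-numbered libraries of a line deviated together with a correlation above 0.1 in 1 of 6 pairs (-0.062 to 0.145), so the numbers were not taken to pair the samples. With the replicate block, IL7R lost its call in the difference between the lines (-1.34, edgeR adjusted p = 0.0550), and 1939 genes were called there beside 2072; the block changed no other call of a member. Without TMM scaling the level per kb moved by more than 1 SD in 4 of 36 group means. Of the log2 fold changes of members over all alternatives, 612 kept direction and side of the threshold, 18 reversed, 21 passed only under the alternative and 41 lost their call.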
